A study of Mus musculus with 7 samples.

Results

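Chemokine ligands are small secreted or membrane-bound proteins that guide leukocytes, and the set described here is every chemokine ligand gene with a probe set of its own on the array. Members were genes whose symbol is Ccl or Cxcl followed by digits and an optional letter, or Cx3cl1, Xcl1, Pf4 or Ppbp, and each gene is read from its brightest probe set by mean log2 signal. This gave 35 genes of the 18193 genes with a single symbol. Of these, 17 were grouped as inflammatory, 3 as interferon-induced, 7 as homeostatic and 8 as other or dual, the last holding platelet chemokines, membrane-bound ligands and ligands with both roles. Probe sets of Ccl19, Ccl21 and Ccl27b match several symbols and were not analysed here.

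The glands came from virgin FVB female mice, all of which carried the polyoma virus middle T transgene (PyV-MT) that drives mammary tumours, and were taken at 8 weeks of age. The mice ate either AIN93G control chow (3 arrays) or chow supplemented with 1% conjugated linoleic acid (CLA, 4 arrays) for 4 weeks, and no gland without the transgene is compared here. The promoter that drives the transgene was not given in the sources used here. RNA came from whole glands, so fewer cells of a type and less RNA per cell cannot be told apart. Values are MAS5 signals, a linear measure of probe brightness scaled to the same trimmed mean on every array.

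Chemokines are named by the spacing of their first cysteines and act through G protein-coupled receptors. Inflammatory chemokines are induced by tissue damage or infection and bring in monocytes, neutrophils and eosinophils. Interferon-induced chemokines attract activated T cells through Cxcr3, and homeostatic chemokines keep lymphocytes and stem cells in place in healthy tissue. In mammary tumours monocyte-attracting chemokines are known for recruiting macrophages, and in the gland Ccl28 is known for drawing antibody-secreting cells during lactation.

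Sequence is shown first for Ccl8 and Ccl12, direct neighbours in a row of inflammatory CC genes on mouse chromosome 11, because Ccl8 was the only tested ligand whose diet groups did not overlap and Ccl12 is the gene beside it. The 250 bases before each start, from RefSeq (GRCm38.p6, plus strand), lie at chr11:82114935-82115184 for Ccl8 and chr11:82101595-82101844 for Ccl12, with a TATAAA match in capitals.
Ccl8: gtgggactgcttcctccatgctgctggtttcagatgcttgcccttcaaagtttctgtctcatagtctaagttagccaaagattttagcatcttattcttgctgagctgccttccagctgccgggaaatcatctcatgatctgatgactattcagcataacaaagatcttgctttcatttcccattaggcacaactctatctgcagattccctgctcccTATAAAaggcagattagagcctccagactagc
Ccl12: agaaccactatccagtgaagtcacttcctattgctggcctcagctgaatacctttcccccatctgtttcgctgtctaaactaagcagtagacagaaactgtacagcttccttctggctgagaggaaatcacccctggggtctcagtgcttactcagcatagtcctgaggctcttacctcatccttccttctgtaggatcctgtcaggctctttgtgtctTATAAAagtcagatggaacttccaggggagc
In a pairwise alignment the 2 stretches shared 147 of 230 aligned bases, 63.9%, with 40 gap positions. The TATAAA match began 32 bases before the start of Ccl8 and 31 bases before that of Ccl12, and it was found on either strand in 12.4% of all 32851 promoters of this length and in 10 of the 28 promoter entries of the ligands. The table held entries for 25 of the 35 ligands.

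Stretches of 40 bases are shown for the neutrophil-attracting trio Cxcl1, Cxcl2 and Cxcl3, since they carry the same NF-kappaB letters (in capitals) while only Cxcl1 had a signal above the filter used here. They lie on the plus strand of GRCm38.p6 at chr5:90891159-90891198, chr5:90903787-90903826 and chr5:90786013-90786052.
Cxcl1: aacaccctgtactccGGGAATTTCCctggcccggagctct
Cxcl2: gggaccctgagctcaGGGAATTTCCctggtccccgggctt
Cxcl3: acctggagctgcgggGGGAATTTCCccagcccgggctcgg
The NF-kappaB motif was present on either strand in 9 of the 28 ligand entries, those of Ccl1, Ccl9, Ccl20, Ccl22, Cxcl1, Cxcl2, Cxcl3, Cxcl9 and Cxcl10, and in 6.98% of all promoters. The interferon-type motif GAAANNGAA, on either strand, was present in 5 entries, Ccl1, Ccl3, Cxcl9, Cxcl10 and Cxcl14, and in 7.13% of all promoters. TGANTCA, the AP-1 letters, was present in 4 entries and 6.75% of all promoters, and TTCNNNGAA, the STAT letters, in 2 entries and 7.02%. The entries of Ccl8 and Ccl12 held none of these 4 motifs in their 250 bases, which says only that these letters are not in this window. Within a promoter, matches of 1 motif on opposite strands can overlap.

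Before any comparison of diets, the signals were set against background. A gene was taken as near background when its mean log2 signal fell below the 40th percentile of all non-control probe sets, here a signal of 57.7. As another view, 6 Y-linked genes, which female mice lack, had mean signals from 6.48 to 29.1. By the first measure 21 ligands passed and 14 lay near background. All 3 interferon-induced ligands, Cxcl9, Cxcl10 and Cxcl11, were near background, with mean signals of 37.2, 46.8 and 41.9. So were the inflammatory Ccl1, Ccl3, Ccl20, Ccl24, Cxcl2, Cxcl3 and Cxcl5, from 9.93 to 31.1, and the other or dual Ccl17, Ccl22, Cxcl15 and Ppbp, from 32.2 to 57.4. All 7 homeostatic ligands passed, Cxcl13 narrowly at a mean signal of 60.8. Xcl1 also passed narrowly, at 60.3, while Ppbp at 57.4 and Ccl22 at 57.0 were just below the limit.

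**Figure D1:**
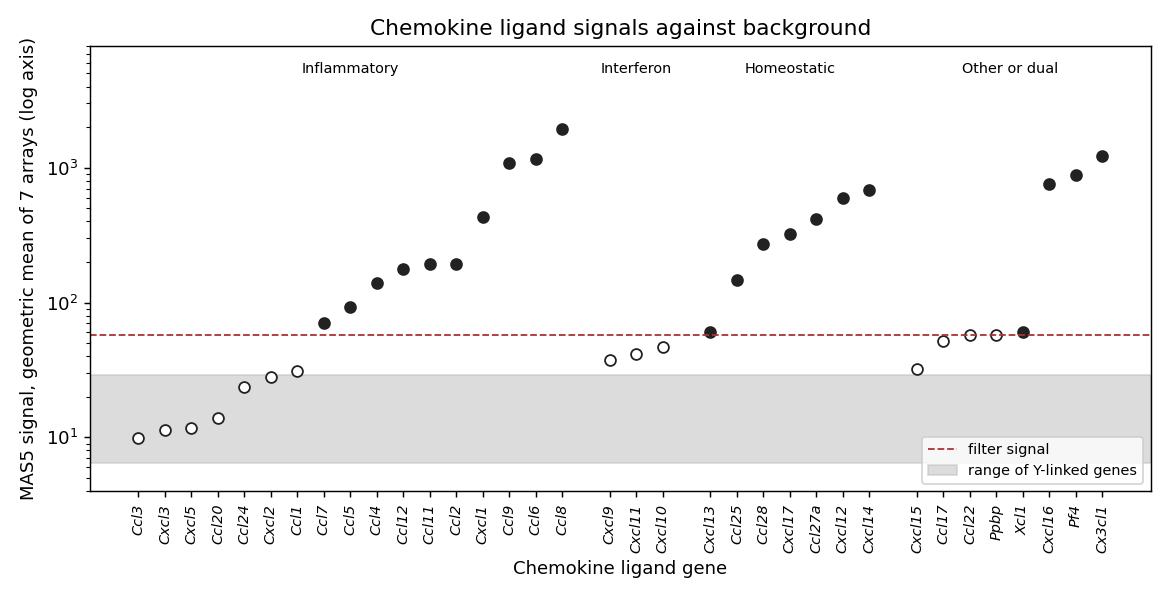
Geometric mean MAS5 signal of each of the 35 chemokine ligands over 7 arrays (log axis), by functional group; filled points passed the filter at a signal of 57.7 (dashed line), open points did not, and the grey band spans the 6 Y-linked genes, 6.48 to 29.1. All 3 interferon-induced ligands are open points below the dashed line.

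The comparison of diets asked whether the CLA diet went with a different chemokine profile in the gland. By limma, with p-values adjusted over all 12497 genes tested, 0 of the 21 tested ligands passed at an adjusted p under 0.05, as did 0% of all genes, and the ligands' adjusted p ran from 0.688 to 0.999. At an unadjusted p under 0.05 there was 1 ligand, Ccl8, against 5.39% of all genes, of which 2.38% were higher and 3.01% lower in CLA glands. Ccl8 was also the only ligand whose groups did not overlap, 1 of 21 against 5.31% of all genes, or 2.64% for groups with CLA above. These shares among the ligands were close to those of all genes. Of the 21 ligands 10 had a positive and 11 a negative log2 change, where 55.3% of all genes were positive, and the median log2 change was -0.07 against 0.03 for all genes.

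**Figure D2:**
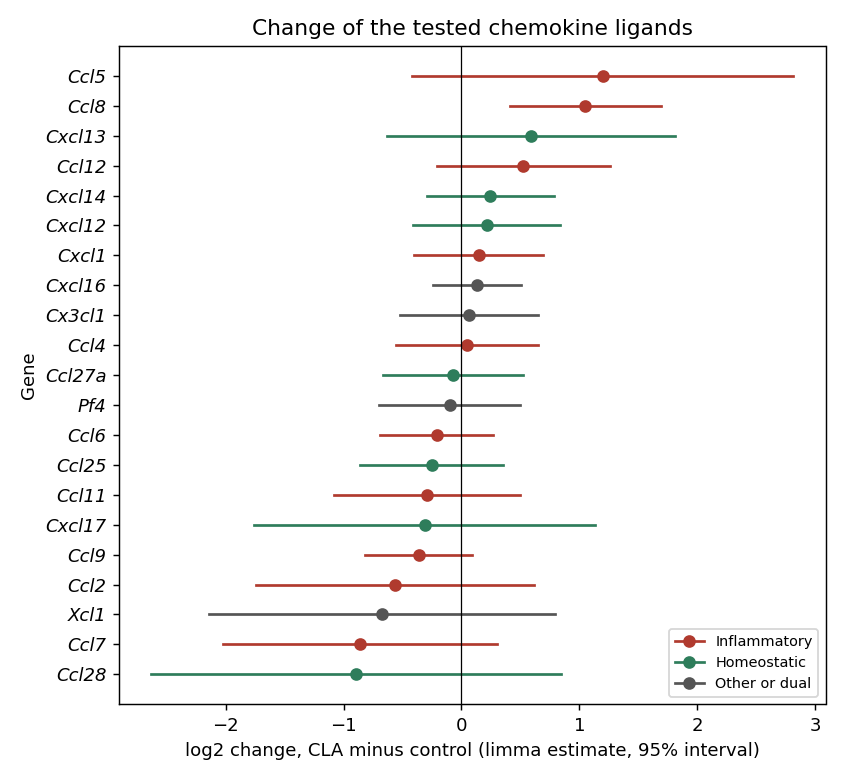
Limma log2 change, CLA minus control, of the 21 tested ligands with 95% intervals, coloured by functional group. The interval of Ccl8, 0.41 to 1.69, is the only one that excludes 0.

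Among the 10 inflammatory ligands above background, Ccl8 was the one whose diet groups did not overlap. Ccl8, also called MCP-2, attracts monocytes and lymphocytes and in the mouse signals through Ccr8. Its signal, in replicate order, was 1245, 2131 and 772 in control glands and 2389, 2586, 2649 and 2911 in CLA glands. Every CLA array lay above every control array, and the CLA arrays were close together while the control arrays spread widely. The means were 1383 ± 690 (SD, n = 3) and 2634 ± 215 (SD, n = 4), 2.07-fold higher with CLA on the log scale. The log2 change was 1.05 ± 0.29 (SE), with a 95% interval from 0.41 to 1.69, limma's unadjusted p = 0.00466 and adjusted p = 0.688 over all genes. The difference was 0.94 between the arrays with title numbers starting with 27 (1 per group), 1.08 among those starting with 28 and 1.04 with that number as a block. Without control replicate 3 it was 0.69 (limma adjusted p = 0.9999), and without control replicate 2 it was 1.42 (adjusted p = 0.857). Over all alternatives the adjusted p of Ccl8 ran from 0.298 to 0.9999.

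The neighbours of Ccl8 overlapped between diets. Along the chromosome the row runs Ccl2, Ccl7, Ccl11, Ccl12, Ccl8 and Ccl1. Ccl2, or MCP-1, the main attractant of Ccr2-bearing monocytes, had signals of 275, 454 and 115 in control and 171, 100.5, 119 and 358 in CLA glands. The groups overlapped, with control replicate 2 and CLA replicate 4 highest, and the log2 change was -0.56 ± 0.53 (SE). Ccl7, MCP-3, which shares the receptor Ccr2, had 74.7, 194 and 66.1 in control and 66.1, 24.6, 71.2 and 74.8 in CLA glands. Control replicate 2 was alone at the top and CLA replicate 2 alone at the bottom, and the change was -0.86 ± 0.52 (limma unadjusted p = 0.129, adjusted p = 0.931).

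Ccl11, eotaxin-1, an eosinophil attractant acting on Ccr3, had 251, 278 and 146 in control and 153, 114, 291 and 194 in CLA glands. These ranges overlapped nearly throughout, at a log2 change of -0.29 ± 0.35. Ccl12, MCP-5, another Ccr2 ligand, had 111, 251 and 108 in control and 231, 166, 194 and 251 in CLA glands. Control replicate 2 lay at the level of the highest CLA array and the other control arrays below every CLA array. Its log2 change was 0.53 ± 0.33 (interval -0.21 to 1.26, limma adjusted p = 0.931). Without control replicate 2 the change of Ccl12 was 0.92, with an unadjusted p of 0.00834 and an adjusted p of 0.998. It was 0.32 without control replicate 3 and 0.28 within the title numbers starting with 28. Ccl1, a T cell attractant, was near background, from 12.0 to 87.3 over the arrays. Without control replicate 2 the changes of Ccl2 and Ccl7 were smaller, -0.11 and -0.37, and without control replicate 3 larger, -1.10 and -1.15. Differences between the changes of these neighbours were not tested.

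**Figure D3:**
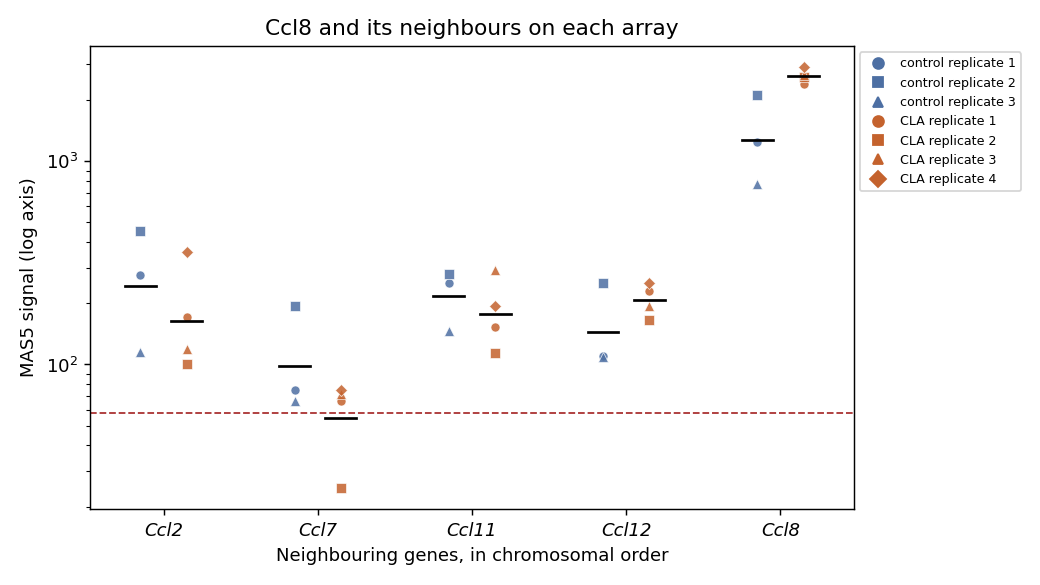
MAS5 signal (log axis) on each array of 5 neighbouring CC chemokine genes in chromosomal order, control arrays left and CLA arrays right of each position, with black bars at the geometric group means and the filter signal of 57.7 dashed. The 4 CLA arrays of Ccl8, 2389 to 2911, lie above its control arrays, and the groups of the other genes overlap.

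The remaining inflammatory ligands above background overlapped between diets. Ccl5, or RANTES, made by T cells and macrophages, had 26.6, 214 and 33.5 in control and 156, 55.8, 198 and 176 in CLA glands. The highest single array was control replicate 2, the other control arrays were lowest, and both lay below the filter signal. The log2 change of Ccl5, 1.20 ± 0.72 (SE), was the largest among the tested ligands, with a wide interval from -0.42 to 2.82 (limma adjusted p = 0.931). It was 2.55 between the arrays with title numbers starting with 27, 0.56 among those starting with 28 and 2.14 without control replicate 2.

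Ccl6 and Ccl9, mouse CC chemokines of macrophages that act on Ccr1, were well above background in every gland. Ccl9 had 1041, 1425 and 1332 in control and 710.0, 1124, 998 and 1135 in CLA glands. CLA replicates 1 and 3 lay below the control range and CLA replicates 2 and 4 within it. The log2 change was -0.36 ± 0.20 (SE; interval -0.82 to 0.09, limma unadjusted p = 0.104, adjusted p = 0.931). With the leading title number as a block it was -0.41 with an unadjusted p of 0.0109 (adjusted p = 0.564). Its other probe set gave -0.54. Ccl6 had 1102, 1598 and 1115 in control and 831, 1011, 1170 and 1401 in CLA glands, interleaved between diets, at -0.21 ± 0.21.

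Ccl4, MIP-1 beta, an attractant of monocytes and T cells, ranged from 131 to 143 in control and from 105 to 197 in CLA glands, with the control arrays inside the CLA range. Cxcl1, a neutrophil attractant acting on Cxcr2, ranged from 358 to 465 in control and from 291 to 552 in CLA glands. For Cxcl1, CLA replicate 3 lay below all control arrays and the other CLA arrays above them. The log2 changes were 0.05 ± 0.27 for Ccl4 and 0.15 ± 0.25 for Cxcl1, and the other probe sets of Cxcl1 gave 0.19 and 0.80.

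Near background, Ccl24, eotaxin-2, had 24.9, 71.9 and 29.6 in control and 12.7, 21.2, 15.7 and 19.3 in CLA glands. The groups did not overlap, but every CLA value lay within the level of the Y-linked genes, so the size of the difference is uncertain. Without the filter its log2 change was -1.15 ± 0.56 (limma unadjusted p = 0.0654, adjusted p = 0.934). Cxcl3 was 0.915, 29.0 and 1.58 in control and 15.1, 36.4, 28.2 and 35.2 in CLA glands, all near background and overlapping. Without the filter Cxcl3 had an unadjusted p of 0.0240 and an adjusted p of 0.917. Ccl20, a ligand of Ccr6, reached 83.4 in control replicate 2 and 54.5 in CLA replicate 4 but only 5.20 to 9.59 elsewhere. Ccl3 reached at most 27.6, Cxcl5 25.6 and Cxcl2 58.1.

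The interferon-induced ligands were too dim for a fold change that can be relied on. Cxcl9 had 26.4, 198 and 67.5 in control and 111, 7.34, 20.5 and 16.9 in CLA glands. Cxcl10 had 53.5, 158 and 48.3 in control and 48.6, 32.8, 67.6 and 11.1 in CLA glands. Cxcl11 had 61.2, 81.5 and 15.5 in control and 48.6, 66.2, 62.2 and 14.6 in CLA glands. All 3 were highest on control replicate 2, and all 3 overlapped between diets. Without the filter the log2 changes were -1.62 ± 0.94, -1.16 ± 0.68 and -0.04 ± 0.72, with limma adjusted p-values of 0.957, 0.957 and 0.999. A further probe set of Cxcl9 gave 0.85 and one of Cxcl11 gave -2.05, so probe sets of a gene disagreed at this level.

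Of the 7 homeostatic ligands 0 passed, 3 had a positive and 4 a negative log2 change, and the median was -0.07. Cxcl12, which retains Cxcr4-bearing cells in stroma and marrow, had 529, 435 and 707 in control and 497, 578, 536 and 1041 in CLA glands. CLA replicate 4 was highest and the other arrays interleaved, at a log2 change of 0.21 ± 0.28. Its next brightest probe set gave -0.33. Cxcl14, an epithelial and stromal chemokine, had 448, 918 and 567 in control and 623, 787, 714 and 811 in CLA glands. The control arrays spanned the whole CLA range, and the change was 0.25 ± 0.24 (limma adjusted p = 0.985). Without control replicate 2 it was 0.53, with an unadjusted p of 0.0261 and an adjusted p of 0.998. Without control replicate 1 it was 0.02, and within the title numbers starting with 28 it was 0.09. The other probe set of Cxcl14 gave -0.02.

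Among the homeostatic ligands, Ccl28 and Cxcl17, chemokines of mucosal and glandular epithelia, had the largest residual SDs between glands of the same diet, 1.37 and 1.13 on the log2 scale. Ccl28 had 121, 1235 and 399 in control and 145, 133, 152 and 668 in CLA glands, a 10.2-fold range over the arrays. Control replicates 2 and 3 and CLA replicate 4 were high and the other 4 arrays lay close together. Its log2 change was -0.89 ± 0.77 (SE; limma unadjusted p = 0.278, adjusted p = 0.971), -0.06 without control replicate 2 and -1.74 without control replicate 1. The dimmer probe sets gave -0.68 and -0.33. Cxcl17 had 205, 685 and 343 in control and 419, 137, 150.1 and 864 in CLA glands, with the same 2 arrays highest, CLA replicate 4 and control replicate 2. Its change was -0.31 ± 0.64.

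All 9 luminal epithelial markers found were above background, with summed signals from 81851 to 101424 in control and 85359 to 93400 in CLA glands. Their mean deviation (the average over the list of each gene's log2 signal less its own 7-array mean) lay between -0.10 and 0.20 on the 7 arrays. For the plasma cell list, of 8 genes with 7 tested, the mean deviation is given in replicate order. It was -0.54, 0.69 and -0.03 in control glands and 0.60, -0.68, -0.40 and 0.36 in CLA glands. The part of these cells in the Ccl28 and Cxcl17 values was not tested.

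Ccl25, a ligand of Ccr9 known from gut and thymus, ranged from 140.2 to 197 in control and from 97.6 to 168 in CLA glands. Ccl27a, a skin chemokine read by Ccr10, ranged from 333 to 501 and from 289 to 552. Both overlapped, at log2 changes of -0.25 ± 0.27 and -0.07 ± 0.26. Cxcl13, which attracts B cells through Cxcr5, had 97.5, 59.7 and 19.2 in control and 83.6, 68.6, 48.1 and 99.7 in CLA glands. Control replicate 3 was the lowest and the rest interleaved, at 0.59 ± 0.54 (limma adjusted p = 0.979), while a dimmer probe set gave -0.41.

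Among the other or dual ligands, 0 of the 4 tested passed. Cx3cl1 (fractalkine), a membrane-bound ligand of Cx3cr1, had 795, 1485 and 1429 in control and 1116, 1629, 1382 and 951 in CLA glands. The groups overlapped at 0.06 ± 0.26, and the mean over its 4 probe sets gave -0.18. Cxcl16, also membrane-bound and read by Cxcr6, had 707, 781 and 669 in control and 917, 826, 637 and 793 in CLA glands. Its highest array was only 1.44-fold above its lowest, the narrowest range among the ligands, and the change was 0.13 ± 0.17 (limma adjusted p = 0.996).

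Pf4, platelet factor 4, had 1044, 641 and 1157 in control and 865, 703, 701 and 1266 in CLA glands, interleaved, at -0.10 ± 0.27. Of 6 platelet and megakaryocyte genes found, 3 (Gp9, Treml1 and Gp6) lay near background and the other 3 had positive changes, of which 0 passed limma's adjusted threshold. The summed signal ran from 688 to 717 in control and from 719 to 1322 in CLA glands. Within these sums Itgb3 alone ran from 195 to 384 in control, and from 141 on CLA replicate 4 to 934 on CLA replicate 3. The part of platelets in the Pf4 values was not tested. Xcl1, made by NK and CD8 T cells, had 22.2, 162 and 136 in control and 49.2, 33.1, 52.4 and 69.9 in CLA glands. Control replicates 2 and 3 lay above and control replicate 1 below every CLA array, and the change was -0.67 ± 0.65 (limma unadjusted p = 0.328, adjusted p = 0.985). Without control replicate 1 it was -1.59, with an unadjusted p of 0.00374 and an adjusted p of 0.197. Xcl1 passed the filter through its high control replicates 2 and 3. CLA replicates 1, 2 and 3 and control replicate 1 lay below the filter signal of 57.7, so these p-values carry little weight. Without control replicate 2 it was -0.15, and without control replicate 3 it was -0.28. Near background, Ccl17 and Ccl22, ligands of Ccr4, ranged from 21.2 to 108 and from 41.2 to 83.0, the lung chemokine Cxcl15 from 5.59 to 93.0 and the platelet chemokine Ppbp from 43.9 to 87.2.

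**Figure D4:**
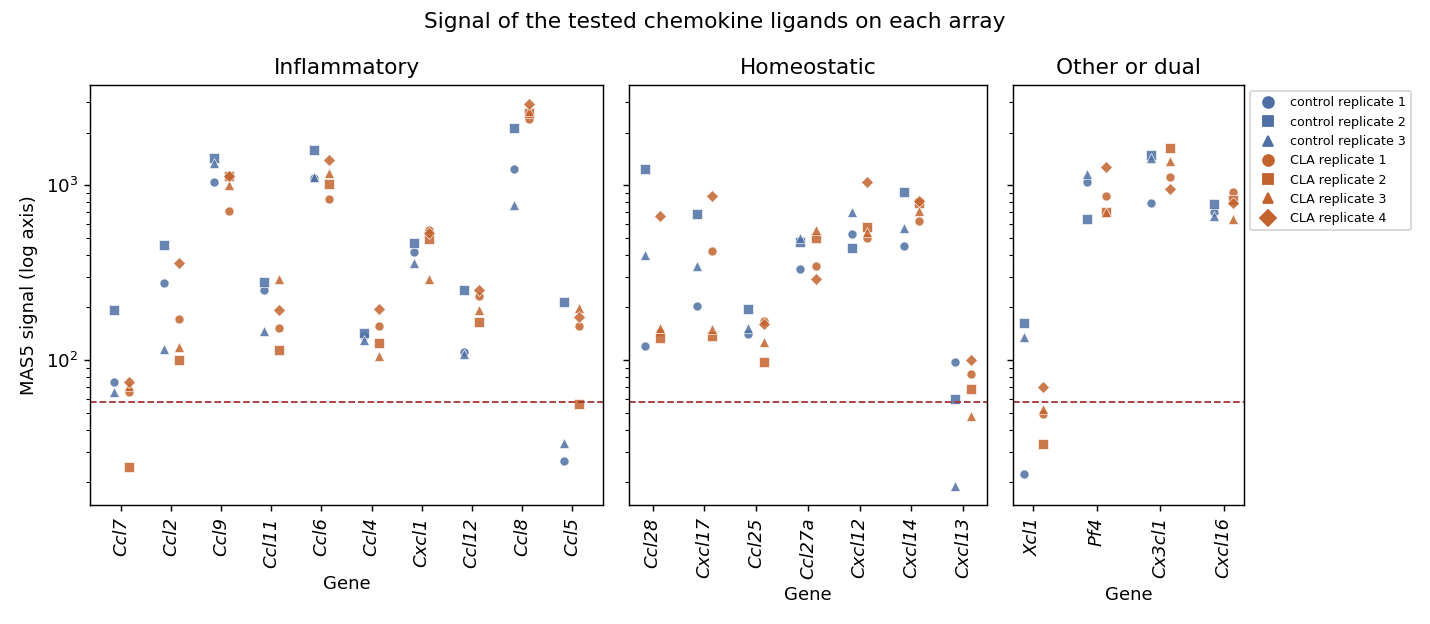
MAS5 signal (log axis) of the 21 tested ligands on each of the 7 arrays, in 3 functional groups, control arrays in blue and CLA arrays in orange with a symbol per replicate; the dashed line is the filter signal of 57.7. For Ccl8 alone do all orange symbols lie above all blue ones.

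The ligands varied between glands of a diet. The median residual SD of the 21 ligands on the log2 scale was 0.44, against 0.28 for all genes tested. Over all 7 arrays of both diets, the highest stood 8.03-fold above the lowest for Ccl5, 7.86-fold for Ccl7 and 10.2-fold for Ccl28. This range was 6.33-fold for Cxcl17, 7.30-fold for Xcl1 and 5.20-fold for Cxcl13, and at most 4.52-fold for the other 15. Ccl5, Ccl7, Cxcl13 and Xcl1 were the dimmest tested ligands, with mean signals of 92.5, 70.1, 60.8 and 60.3 against a filter signal of 57.7. Control replicate 2 was the highest array for 10 of the 21 ligands, among them Ccl2, Ccl5, Ccl6, Ccl7, Ccl9, Ccl12, Ccl28 and Xcl1, and for 15.5% of all genes. CLA replicate 4 was the highest for 6 ligands, against 17.9% of all genes, and control replicates 1 and 3 for 0, against 11.5% and 11.4%. These counts are a description of single glands and carry no test.

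Other transcripts also set these glands apart. The skeletal muscle list, 10 of 10 markers tested, had a negative change in 10 of 10, with a median log2 change of -4.12. None passed limma's adjusted threshold. In replicate order, its mean deviation was 0.84, 4.18 and 1.59 in control glands and 1.35, -3.51, -1.25 and -3.20 in CLA glands. White adipocyte markers had a negative change in 10 of 10, with summed signals from 50430 to 61384 in control and 17634 to 39685 in CLA glands. The part of muscle and of adipocytes in the chemokine values was not tested. RNA integrity, read from the 3′ to 5′ ratio of Actb, set CLA replicate 3 apart at 2.78, against 1.41 to 1.88 elsewhere.

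**Figure D5:**
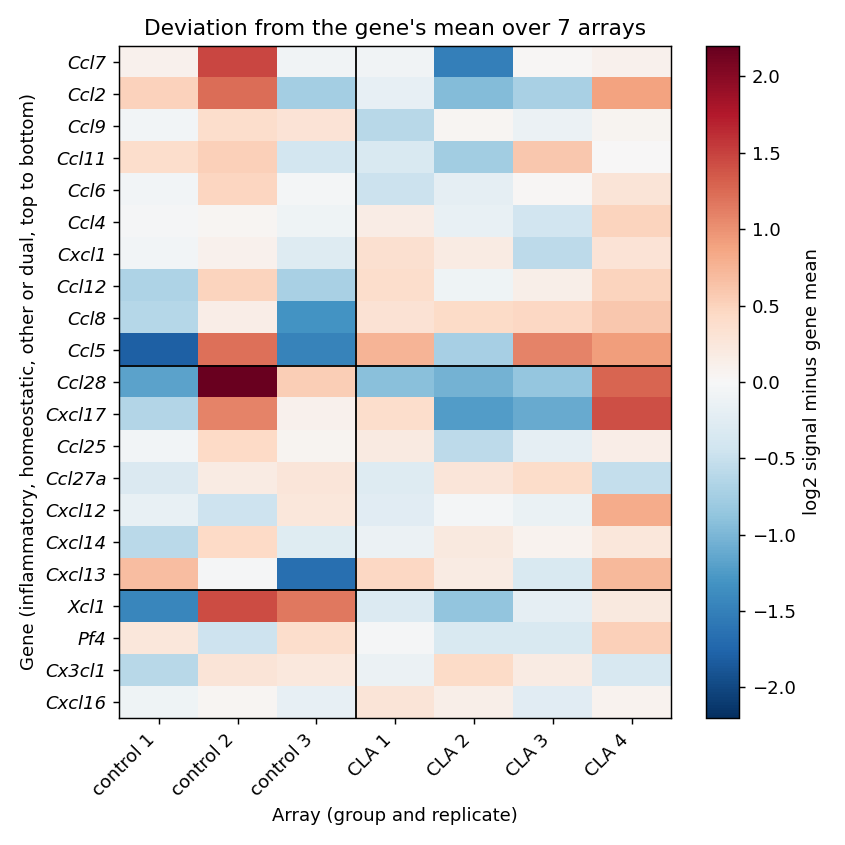
Deviation of the log2 signal from each gene's own 7-array mean for the 21 tested ligands (rows, inflammatory, homeostatic, then other or dual) on each array (columns), red above and blue below the mean. Control replicate 2 holds the strongest red cells, with 2.17 for Ccl28, and Ccl8 is above its mean on all 4 CLA arrays and control replicate 2.

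The cells that make or follow these chemokines were examined through their markers. All 12 macrophage markers were above background, 8 with a positive and 4 with a negative log2 change, none past limma's adjusted threshold. The summed macrophage signal ran from 26705 to 34717 in control and from 26918 to 33970 in CLA glands, and the mean deviation differed by -0.01 between diets. The part of macrophages in the Ccl8 values was not tested. Single macrophage genes went both ways, from the scavenger receptor gene Cd163 at -1.06 (limma unadjusted p = 0.00166, adjusted p = 0.576) to the Fc receptor gene Fcgr1 at 0.52. Cd163 had 254, 222 and 262 in control and 87.1, 119, 150 and 124 in CLA glands. Its CLA arrays all lay below its control arrays, as for 2.67% of all genes. Cd14 was at -0.68 (limma unadjusted p = 0.0155, adjusted p = 0.797). Of all genes, 5.39% had an unadjusted p under 0.05. T and B cell markers were scarce, with Cd3d, Cd3e and Cd4 among the 5 of 7 T and NK cell genes, and Cd79a, Cd79b and Ms4a1 among the 7 of 9 B cell genes, near background. Of 8 neutrophil genes found, 6 were near background. S100a8 was well above it, at a mean signal of 3966. S100a9 passed narrowly at 60.6, with 276 on CLA replicate 4 and 26.9 to 81.2 on the other arrays. Dendritic cell genes were above background in 4 of 7, with summed signals from 2062 to 3334 in control and 2433 to 3769 in CLA glands. Most of these sums came from H2-Ab1 alone, at 1282 to 2387 in control and 1632 to 2829 in CLA glands. Basal epithelial, fibroblast and endothelial lists, 8 of 8 tested in each, had median log2 changes of 0.63, 0.25 and -0.29.

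The receptors complete the pathway. Of 23 receptor genes listed, 21 were found and 10 were above background. Of these 10, 0 passed limma's adjusted threshold, 3 had a positive and 7 a negative log2 change, and the median was -0.20. Cxcr3, the receptor of the interferon-induced ligands, had 168, 144 and 132 in control and 92.7, 82.0, 97.9 and 102 in CLA glands. Every CLA array lay below every control array, 1 of the 10 receptors against 2.67% of all genes. The log2 change of Cxcr3 was -0.65 ± 0.24 (SE; interval -1.19 to -0.12, limma unadjusted p = 0.0222, adjusted p = 0.855). Ccrl2, a non-signalling receptor of the family, had -0.41 ± 0.20, Cx3cr1, the fractalkine receptor, 0.28 ± 0.20, and Ccr2, the receptor of Ccl2, Ccl7 and Ccl12, -0.23 ± 0.29.

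Ccr8, read by mouse Ccl8, was near background on every array, from 1.68 to 6.02. Cxcr4 and Ackr3, which bind Cxcl12, were above background, with log2 changes of 0.11 ± 0.35 and -0.12 ± 0.21. Ccr1, a receptor of Ccl6 and Ccl9, ranged from 223 to 287 over all arrays at 0.02 ± 0.18. Ccr9, Ccr10, Cxcr2 and Cxcr5, receptors of Ccl25, Ccl28, Cxcl1 and Cxcl13, were near background, as was Ccr7, the receptor of lymph node chemokines.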

How the data were processed

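Biotin-labelled RNA of each gland was read on an Affymetrix array (45101 probe sets), per the labels' protocols. The authors deposited linear intensity values made with MAS5, per the submitters' processing notes, and all 7 arrays share a trimmed mean of 500.003. Version and genome build: not given in the sources used here. A floor of 1 was applied before log2. Affymetrix control probe sets (64) were left out, and 34945 probe sets with 1 symbol were used. Of these, 34741 were matched by Entrez identifier to a RefSeq table and took its symbol, whether or not that differed. Genes at or above the 40th percentile, 12497 in all, were fitted with limma 3.58.1 in R 4.3.3 (eBayes with trend, two-sided, Benjamini-Hochberg over all genes). The members and gene lists were chosen with earlier results of these data known. Every ligand is named. Statistics are given for the 3 ligands of smallest p in each group, those with separate groups and 4 receptors, and for others beside their values. Cd163, Cd14, Fcgr1 and the remaining receptors were chosen after their values were seen. The fit was tested on simulated data. MAS5 scaling assumes equal total signal between glands. Title numbers begin with 27 or 28, a prefix of unknown meaning. The small number of arrays limits precision. Alternatives were quantile normalization, a pseudocount of 16, no filter, a 60th percentile filter, probe-set means per gene, the title number as a block or its 28 arrays alone, and each array left out.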

Additional observations from a re-analysis of the deposited data

Results flagged for a closer look

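Within the 4 CLA arrays, each of the 35 ligands was checked for an array far from the other 3. Ccl28 on CLA replicate 4, at a signal of 668, lay far above the other CLA arrays, at 133 to 152. Ccl7 on CLA replicate 2, at 24.6, lay far below the others, at 66.1 to 74.8, and below the filter signal of 57.7. Chance flags about 1 in 20 groups, so 2 of 35 is near what chance gives.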

How the results depend on the processing

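Across 14 alternatives 0 ligands and 0 receptors passed limma's adjusted threshold, and 14 of the 21 tested ligands kept the sign of their change wherever they were tested. Over all genes 1 gene passed within the title numbers starting with 28, and 0 to 17 passed with an array left out. Ligands at an unadjusted p under 0.05 numbered 2 without the filter (Ccl8, Cxcl3), 2 with the title number as a block (Ccl8, Ccl9), 2 within the title numbers starting with 28 (Ccl8, Xcl1) and 1 to 4 with an array left out. Leaving out control replicate 1 gave 4 (Ccl8, Ccl9, Ccl28, Xcl1), control replicate 2 gave 4 (Ccl5, Ccl8, Ccl12, Cxcl14) and CLA replicate 2 gave 2 (Ccl5, Ccl8). Ligands whose groups did not overlap numbered 2 without the filter (Ccl8, Ccl24), 3 within the title numbers starting with 28 (Ccl8, Ccl9, Xcl1) and 1 to 4 with an array left out, the count being 3 when control replicate 1 or CLA replicate 3 was left out and 4 when control replicate 2 was. Shares over all genes were not computed for these alternatives, so neither set of counts is a result about the ligands. Groups of fewer arrays separate more often by design, and the differences between these counts were not tested. The median change of the ligands ran from -0.19 to 0.05 with an array left out. Cx3cl1 turned to -0.18 as the mean of its probe sets and -0.18 within the title numbers starting with 28. With an array left out, Cx3cl1 ran from -0.23 to 0.22, Ccl27a from -0.26 to 0.089, Ccl4 from -0.11 to 0.19, Cxcl12 from -0.026 to 0.40, Cxcl13 from -0.075 to 1.10, Cxcl17 from -0.83 to 0.15 and Pf4 from -0.36 to 0.067. No paired analysis was possible because the labels give no replicate numbers that the diets share. Low signal limits the 14 ligands near background.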
